A study of Bos indicus and Bos taurus with 17 samples.

Results

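Genes of sterol efflux and their relatives among the ATP-binding cassette (ABC) transporters were followed in RNA of milk cells from Kashmiri and Jersey cattle. The set was chosen by name and held 10 genes. They were the transporters ABCA1, ABCG1, ABCG2, ABCA7, ABCC1 and ABCB1, the liver X receptors NR1H2 and NR1H3, and the lysosomal cholesterol proteins NPC1 and NPC2. Of these 10, 9 had an entry among the 21631 distinct gene names, each under its own name, and ABCB1 had none under that name and was not analysed here. The labels named no treatment, and the cows were milked on D15, D90 and D250 of lactation, which gave 6 groups of breed and day. The labels described 17 samples, 3 in a group other than the Jersey D90 group, which had 2, and gave lactation number 2 or 3 for each of them. Lactation number was not balanced over breed and day. All 3 samples of Kashmiri at D90 and of Jersey at D250 were labelled lactation 2. Lactation 3 was given for 2 samples each of Kashmiri at D15 and D250, and for 1 each of Jersey at D15 and D90. The paper, in contrast, describes the cows as being in lactation 3. All samples of D15 were labelled March, those of D90 July and those of D250 December, so day in milk and season cannot be told apart. The study captured the cells from milk with magnetic beads coated with an antibody against keratin 18 (KRT18), a filament protein of epithelial cells.

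Cells export cholesterol through ABC transporters, pumps that use ATP to move lipids and other molecules across membranes. When sterols build up in a cell, oxysterols made from them bind the liver X receptors (LXR), which pair with retinoid X receptors and switch on genes such as ABCA1 and ABCG1. Cholesterol that enters the cell in lipoproteins or engulfed debris first reaches the lysosome, where NPC2 takes it up and hands it to NPC1 for transfer across the membrane. ABCG2 has another role in milk. It lies in the apical membrane of the secretory mammary epithelium, its amount goes up with lactation, and it carries riboflavin and many drugs into milk.

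Each group had 1 FPKM value per gene (sequenced fragments scaled to transcript length and to the mapped reads of the library), as deposited by the authors. FPKM is per length, so levels of different genes may be set beside each other. There was no value per cow, so neither a spread between cows nor a test between groups could be given, and 1 cow may carry a group value. The number of reads behind a value is unknown, and levels next to each other in an order were not shown to differ. A gene was counted as past 4-fold when 1 FPKM was added to both values and their log2 ratio was then 2 or more in size, provided that the higher value was 1 FPKM or more. Folds and log2 ratios of single genes are plain ratios with nothing added. Where 3 values of a breed or of the breed ratio follow each other, they run from D15 through D90 to D250.

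The 9 genes covered levels from below 1 FPKM to 390.0 FPKM, and none was listed at 0. NPC2 was the most abundant of them in every group, and ABCA1, ABCG1 and ABCA7 lay below 1 FPKM in at least 1 group. The highest group value exceeded the lowest 82.0-fold for ABCG2, 51.2-fold for ABCA1, 13.9-fold for ABCA7 and 10.97-fold for ABCG1. It exceeded the lowest 6.36-fold for NR1H3, 3.79-fold for ABCC1, 3.62-fold for NPC1, 2.84-fold for NR1H2 and 1.76-fold for NPC2. Jersey at D250 had the highest value of 5 genes, which were ABCG1, ABCA7, NR1H2, NPC1 and NPC2, and Kashmiri at D15 had the lowest value of 4 genes, which were ABCA1, ABCG1, ABCC1 and NR1H3. When FPKM was rescaled by the upper quartile, NR1H2 was highest in Kashmiri at D90 and NPC2 in Kashmiri at D250 instead.

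**Figure D1:**
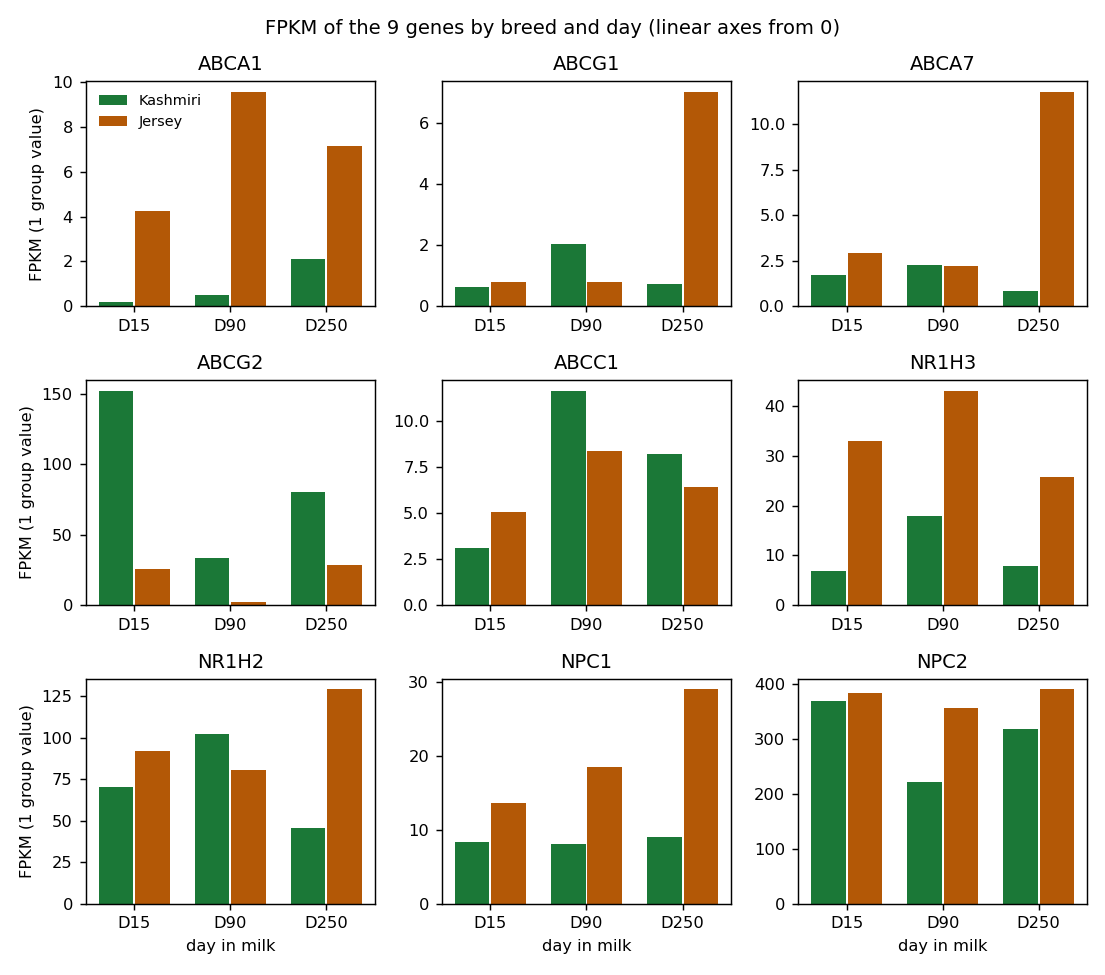
FPKM of the 9 genes in Kashmiri (green) and Jersey (brown) cattle at D15, D90 and D250, with 1 bar for each group value, no error bar because there was 1 value per group, and a linear axis from 0 that differs between genes. ABCG2 ran from 153 FPKM in Kashmiri at D15 down to 1.86 FPKM in Jersey at D90, while ABCA1 ran the other way, from 0.187 FPKM in Kashmiri at D15 up to 9.58 FPKM in Jersey at D90.

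ABCG2, the milk-secreting transporter, had the widest range and was lower in Jersey than in Kashmiri on all 3 days. In Kashmiri it measured 153, 33.7 and 80.2 FPKM. In Jersey it measured 25.4, 1.86 and 28.4 FPKM. Both breeds thus had their lowest value at D90, and each Jersey value lay below all 3 Kashmiri values. The share of all genes whose breed values do not overlap in this way was not computed. At D90 the level was 4.53-fold lower than at D15 in Kashmiri and 13.6-fold lower in Jersey. From D90 to D250 it was higher again, 2.38-fold in Kashmiri and 15.2-fold in Jersey. The D250 level was 1.90-fold lower than the D15 level in Kashmiri and 1.12-fold higher in Jersey. In Kashmiri that order of D15 and D250 depended on the scale, since the log2 ratio of D250 over D15 was -0.93 as deposited and 0.08 after rescaling to the sum of all genes other than 5 milk protein genes. Jersey was 6.01-fold lower than Kashmiri at D15, 18.1-fold lower at D90 and 2.83-fold lower at D250, and it was lower under every scaling tried.

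Markers of epithelial cells moved with ABCG2 from D15 to D90, but in Jersey most did not from D15 to D250. Of 12 epithelial markers, 10 had an entry, and all 10 were lower at D90 than at D15 in both breeds. Their summed level in Kashmiri was 5853, 712 and 2600 FPKM. In Jersey the sum was 2685, 98.2 and 1393 FPKM. KRT19 and ELF5, at 3195 and 1799 FPKM, were the largest parts of the Kashmiri D15 sum. In Jersey, 7 of the 10 were lower and 3 higher at D250 than at D15, with a median log2 ratio of -1.11. Past 4-fold were 4 downward and 0 upward, beside 12.6% of all genes in either direction, whereas ABCG2 was 1.12-fold higher. KRT8 and EPCAM were read from joined entries. None of the 10 was listed at 0, and KRT18, the antigen used for capture, was lowest in Jersey at D90, at 1.59 FPKM, and highest in Kashmiri at D15, at 51.3 FPKM. In bulk RNA, fewer cells of a type and less RNA per cell cannot be told apart. The ratio of ABCG2 to ELF5, a transcription factor of the secretory mammary lineage, does not depend on scaling within a group. It was 0.0848, 0.163 and 0.104 in Kashmiri, and 0.0751, 0.148 and 0.0814 in Jersey. This ratio spanned 2.18-fold over the 6 groups, against 82.0-fold for ABCG2 alone. Per KRT18, in contrast, ABCG2 ranged from 0.754 in Jersey at D15 to 6.95 in Kashmiri at D250, a span of 9.23-fold, and per KRT19 it spanned 7.60-fold. These marker genes were picked for the ratios after their values were seen, and the part of the epithelial markers in the ABCG2 differences was not tested.

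**Figure D2:**
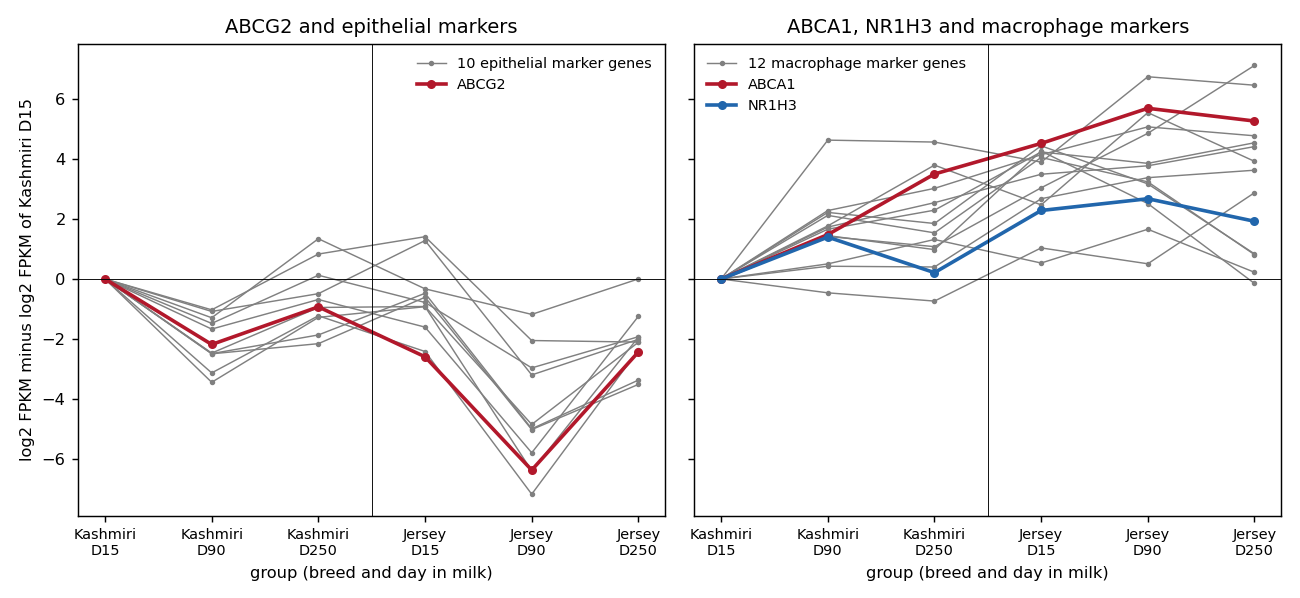
Log2 FPKM relative to Kashmiri at D15 for ABCG2 with the 10 epithelial markers (left) and for ABCA1 and NR1H3 with the 12 macrophage markers (right), over the 6 groups of breed and day, where each line is 1 gene and each point 1 group value. ABCG2 and most epithelial markers had their lowest point in Jersey at D90, and ABCA1 and most macrophage markers were higher in the 3 Jersey groups than in Kashmiri at D15.

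Genes with the profile most like that of ABCG2 were sought among 7430 symbols at 1 FPKM or more in every group, by the root mean square difference of centred log2(FPKM + 1) over the 6 groups. The closest were CREB3L1 at 0.219, BICDL1 at 0.248 and FABP3 at 0.290, and 16 genes lay within 0.5. FABP3 encodes a fatty acid binding protein abundant in the lactating gland. Its level went from 10561 FPKM in Kashmiri at D15 down to 164 FPKM in the Jersey D90 group. All 6 points of each profile come from the same groups, so the likeness is a description.

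ABCA1, which loads cholesterol and phospholipid onto lipid-poor apolipoprotein A-I, was higher in Jersey than in Kashmiri on every day and higher at each later day in Kashmiri. In Kashmiri it was 0.187, 0.520 and 2.104 FPKM. In Jersey it was 4.26, 9.58 and 7.14 FPKM. The lowest Jersey value was thus above the highest Kashmiri value. The Jersey level exceeded the Kashmiri level 22.8-fold (D15), 18.4-fold (D90) and 3.39-fold (D250). The Kashmiri levels at D15 and D90 were below 1 FPKM, and with 1 FPKM added the breed log2 ratios were 2.15, 2.80 and 1.39. Within Kashmiri the D250 level was 11.3-fold that of D15, but it rested on 0.187 FPKM, and with 1 FPKM added its log2 ratio was 1.39, short of the limit. Within Jersey the D90 level was 2.25-fold that of D15, and D250 was 1.34-fold lower than D90.

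ABCG1, the LXR target that passes cholesterol on to high-density lipoprotein, stayed below 1 FPKM in 4 of the 6 groups. It was 0.640, 2.03 and 0.733 FPKM in Kashmiri. The Jersey values were 0.779, 0.784 and 7.02 FPKM. Jersey at D250 stood apart from the other groups, 8.95-fold above Jersey at D90 and 9.58-fold above Kashmiri at D250. At D90 the order of the breeds was the opposite, with Jersey 2.58-fold lower. ABCA1 and ABCG1, although both are LXR targets, kept no fixed proportion. The ratio of ABCA1 to ABCG1 was 0.292, 0.257 and 2.87 in Kashmiri, and 5.47, 12.2 and 1.02 in Jersey.

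ABCA7, a close relative of ABCA1 that moves phospholipid and is known in phagocytosis, also peaked in Jersey at D250. Its levels in Kashmiri were 1.73, 2.28 and 0.844 FPKM. Its levels in Jersey were 2.94, 2.22 and 11.8 FPKM. The breeds lay close together at D90, where the log2 ratio of Jersey over Kashmiri was -0.04, and far apart at D250, where Jersey was 13.9-fold higher. Within Jersey the D250 level was 5.29-fold that of D90 and 4.002-fold that of D15. With the pseudocount these log2 ratios were 1.99 and 1.70, so neither reached the limit of 2, the first narrowly. That of ABCG1 for D250 over D90 was 2.17 and passed the limit.

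Neutrophil markers were also highest in Jersey at D250. Of 12 listed, 8 had an entry, none was listed at 0, and their sum was 181, 513 and 622 FPKM in Kashmiri. In Jersey the sum was 4777, 5348 and 13380 FPKM. CSF3R, the receptor of the growth factor that drives neutrophil production, was read from an entry joined with another gene. Per CSF3R, ABCG1 ranged from 0.00167 to 0.0329 and ABCA7 from 0.00462 to 0.0371, and for both genes all 3 Jersey ratios lay below all 3 Kashmiri ratios. CSF3R was picked for the ratios after its values were seen, and the part of neutrophil RNA in the D250 values was not tested.

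ABCC1, which exports glutathione conjugates and leukotriene C4, differed less between the breeds. In Kashmiri it was 3.08, 11.7 and 8.21 FPKM. The Jersey values were 5.03, 8.40 and 6.44 FPKM. Both breeds had their highest value at D90 and their lowest at D15 as deposited, but after rescaling to the sum of the other genes the Kashmiri value was highest at D250. The D90 level was 3.79-fold that of D15 in Kashmiri and 1.67-fold in Jersey. Between the breeds, Jersey was 1.64-fold higher (D15), 1.39-fold lower (D90) and 1.27-fold lower (D250).

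NR1H3, the receptor LXR alpha that is prominent in macrophages and liver, was higher in Jersey on all 3 days. It was 6.78, 17.8 and 7.85 FPKM in Kashmiri. In Jersey it was 32.9, 43.1 and 25.7 FPKM. The groups of the breeds did not overlap, as for ABCG2, ABCA1 and NPC1 as deposited, and both breeds peaked at D90. How many of all genes show such a separation was not counted. The Jersey level exceeded the Kashmiri level 4.85-fold (D15), 2.42-fold (D90) and 3.27-fold (D250), and it was higher under every scaling tried.

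NR1H2, the widely expressed receptor LXR beta, was the more abundant receptor in every group. It measured 70.1, 102 and 45.4 FPKM in Kashmiri. In Jersey it measured 91.8, 80.3 and 129 FPKM. The breeds overlapped, with Kashmiri 1.28-fold higher at D90 and Jersey 2.84-fold higher at D250. The balance of the receptors differed more than NR1H2 itself. Per unit of NR1H2, NR1H3 was 0.0967, 0.174 and 0.173 in Kashmiri, and 0.359, 0.537 and 0.199 in Jersey, so that each Jersey ratio exceeded all Kashmiri ratios.

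Macrophage markers were higher in Jersey too. All 12 had an entry, ADGRE1 under a joined name, and none was listed at 0. Their sum was 119, 511 and 520 FPKM in Kashmiri. The Jersey sums were 1126, 2380 and 2833 FPKM. From D90 to D250 in Jersey, however, 7 of 11 markers were lower and 4 higher. Their median log2 ratio was -0.29. The joined entry of ADGRE1, which also holds VAV1, went from 190 to 909 FPKM between these days. Of the 11 markers with at least 1 FPKM, 11 were higher in Jersey at D15, and the count was 11 for D90 and 7 for D250, or 6 for D250 under either other scaling. The ratio of ABCA1 to CSF1R, the receptor that macrophages need for survival, lay between 0.0275 and 0.0735 in the 6 groups, a span of 2.67-fold against 51.2-fold for ABCA1 alone. For CD68, a lysosomal protein of macrophages, the same ratio spanned 13.6-fold. NR1H3 per CSF1R ran from 0.242 in Jersey at D250 to 1.74 in Kashmiri at D15, a span of 7.18-fold, which is wider than the 6.36-fold of NR1H3 alone. The 51.2-fold span rests on the 0.187 FPKM of ABCA1 in Kashmiri at D15. CSF1R and CD68 were picked for the ratios after their values were seen. The part of macrophage RNA in the ABCA1 and NR1H3 differences was not tested.

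NPC1, the lysosomal membrane protein, spanned about 1 FPKM over lactation in Kashmiri as deposited and was higher at each later day in Jersey. In Kashmiri it was 8.40, 8.02 and 8.998 FPKM. Jersey cattle had 13.6, 18.6 and 29.0 FPKM. All Jersey values lay above all Kashmiri values, by 1.62-fold (D15), 2.32-fold (D90) and 3.22-fold (D250) on the same day. With scaling to the sum the ranges of the breeds touched, since Kashmiri at D250 then stood at 13.4 FPKM and Jersey at D15 at 13.2 FPKM.

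NPC2, the soluble partner that carries cholesterol inside the lysosome, was among the abundant transcripts of every group. It was 368, 222 and 317 FPKM in Kashmiri. In Jersey it was 382, 356 and 390 FPKM. At least 96.3% of the genes with 1 FPKM or more lay below it in each group. The breeds differed by 1.04-fold (D15), 1.60-fold (D90) and 1.23-fold (D250) with Jersey higher, but the sign of the D15 and D250 ratios turned when FPKM was rescaled by the upper quartile. The ratio of NPC1 to NPC2 was 0.0228, 0.0361 and 0.0284 in Kashmiri and 0.0355, 0.0522 and 0.0744 in Jersey.

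The 9 comparisons were the 3 pairs of days within each breed, later over earlier, and Jersey over Kashmiri on each day. Each group enters several of them, so comparisons share groups. Shares of all genes past a limit were computed as deposited, so counts under other scalings have no share beside them. The median log2 ratio of all genes that reached 1 FPKM in both groups lay between -0.15 and 0.14 as deposited. It shifted to between -0.57 and 0.15 with upper quartile scaling and to between -0.83 and 0.89 with scaling to the sum. Relative to that median as deposited, the Jersey over Kashmiri log2 ratio of ABCA1 was 4.66, 4.19 and 1.83, and that of ABCG2 was -2.44, -4.19 and -1.43. NR1H3 stood at 2.43, 1.26 and 1.78 on the same measure. The Kashmiri levels behind the ABCA1 ratios at D15 and D90 were below 1 FPKM.

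Between the days in Kashmiri few of the genes passed the limit. For D90 over D15, 1 of the 8 genes with at least 1 FPKM passed 4-fold, ABCG2 downward, beside 7.5% of all genes, and under both other scalings it fell short of the limit. At the lower limit of 2-fold, 3 genes passed, ABCC1 and NR1H3 upward and ABCG2 downward, beside 33.5% of all genes. For D250 over D90, 0 of 9 passed 4-fold, beside 1.98% of all genes, and 4 passed 2-fold, ABCA1 and ABCG2 upward and both liver X receptors downward, beside 17.7%. Both receptors fell short with scaling to the sum, where the calls at 2-fold were ABCA1, ABCG2 and NPC2. For D250 over D15, 0 of 8 passed 4-fold, beside 4.05%, and 2 passed 2-fold, ABCA1 and ABCC1 upward, beside 25.7%. ABCC1 passed 4-fold and NR1H3 2-fold there with scaling to the sum. The members' median log2 ratio, with the pseudocount, was 0.36, -0.46 and 0.08 in these 3 comparisons, against -0.01, 0.03 and -0.04 for all genes. The median for D250 over D90 turned to 0.18 with scaling to the sum, and that for D250 over D15 was then 0.79.

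In Jersey, ABCG2 and ABCG1 held the calls past 4-fold. For D90 over D15, ABCG2 alone passed 4-fold, downward, which is 1 of 8 genes beside 6.76% of all genes, and 2 genes passed 2-fold, ABCG2 and, upward, ABCA1, beside 29.8%. For D250 over D90, 2 of 9 passed 4-fold, ABCG1 and ABCG2 upward, beside 4.18%, of which ABCG1 fell short under both other scalings, and with ABCA7 3 passed 2-fold upward, beside 20.9%, joined by NR1H3 downward with scaling to the sum. For D250 over D15, 1 of 9 passed 4-fold, ABCG1 upward, beside 12.6%, and 3 passed 2-fold upward, ABCG1, ABCA7 and NPC1, beside 42.4%, of which NPC1 fell short under both other scalings. The members' medians were 0.00, 0.62 and 0.49, against -0.07, 0.15 and 0.07 for all genes.

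Between the breeds more of the genes passed. At D15, 3 of 8 passed 4-fold, ABCA1 and NR1H3 higher and ABCG2 lower in Jersey, beside 8.57% of all genes, and the same 3 passed 2-fold, beside 28.9%. At D90, 2 of 9 passed 4-fold, ABCA1 higher and ABCG2 lower, beside 11.7%, and 4 passed 2-fold with NR1H3 and NPC1, beside 32.9%. NPC1 fell short with upper quartile scaling, and NPC2 also passed with scaling to the sum. At D250, 2 of 9 passed 4-fold, ABCG1 and ABCA7 higher, beside 12.3%. With upper quartile scaling ABCA7 alone passed, and with scaling to the sum ABCA7 passed together with ABCG2, lower in Jersey. At 2-fold, 7 of 9 passed at D250, beside 34.5% of all genes. ABCA1, ABCG1, ABCA7, both liver X receptors and NPC1 were the 6 higher in Jersey, and ABCG2 was lower. That count went down to 5 with upper quartile scaling and to 3, ABCG1, ABCG2 and ABCA7, with scaling to the sum. The members' median log2 ratio was 0.53, -0.03 and 1.49, against -0.13, -0.03 and -0.10 for all genes. Scaled to the sum, it was 0.22 at D90 and 0.81 at D250. At D250 that scaling took the plain log2 ratio of NR1H2 from 1.51 to 0.75, that of NR1H3 from 1.71 to 0.95 and that of NPC1 from 1.69 to 0.93.

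**Figure D3:**
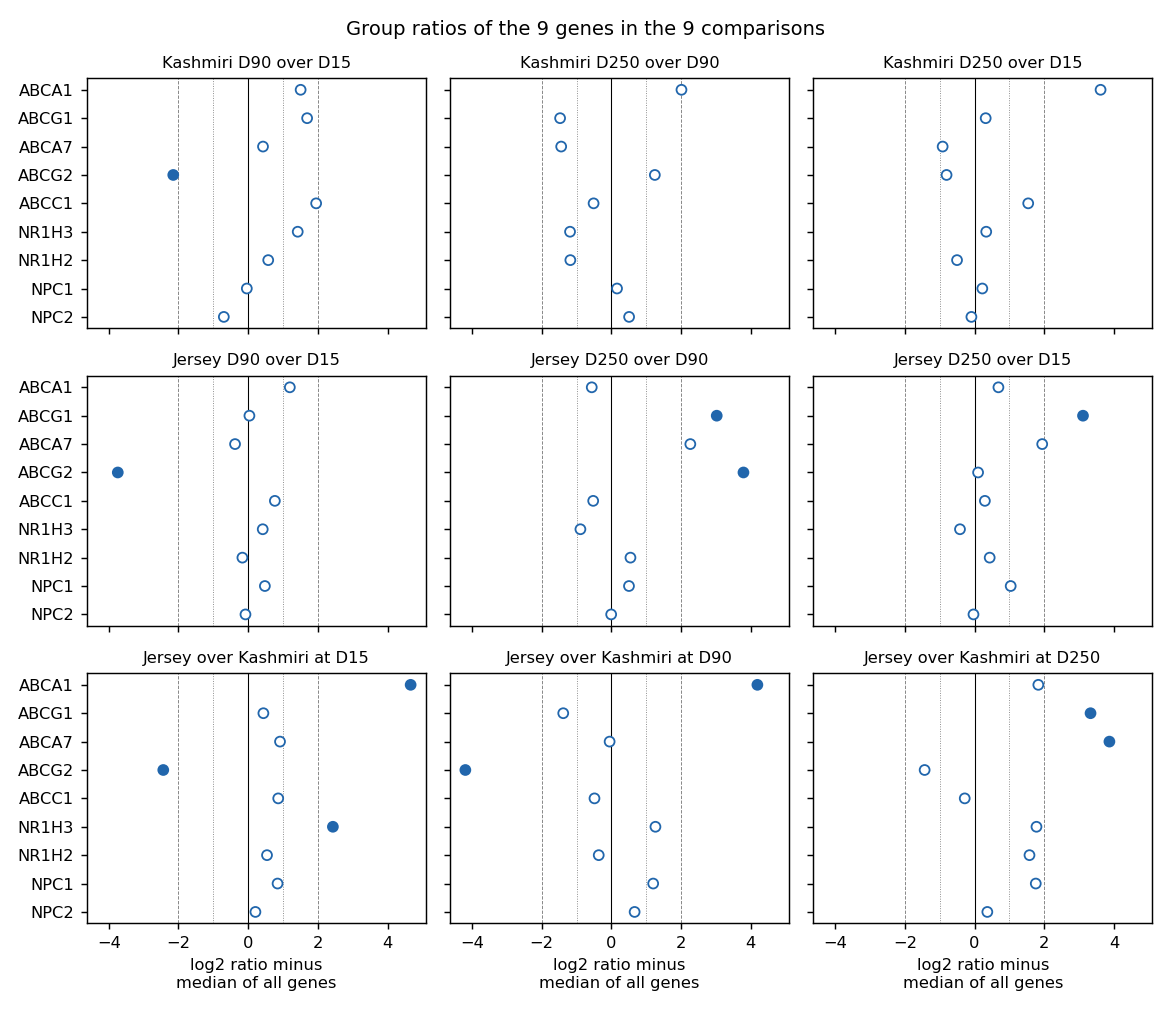
Plain log2 ratio of the 2 group values of each of the 9 genes, less the median of all genes that reached 1 FPKM in both groups, in the 9 comparisons (rows: Kashmiri days, Jersey days, breeds). Filled points passed 4-fold with the pseudocount of 1 FPKM and the minimum of 1 FPKM, open points did not, and dotted and dashed lines mark log2 ratios of 1 and 2 in either direction. Filled points in the breed comparisons are ABCA1, NR1H3 and ABCG2 at D15, ABCA1 and ABCG2 at D90, and ABCG1 and ABCA7 at D250.

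The other genes of LXR signalling were read from a list. Of 9 partners and coregulators, 8 had at least 1 FPKM, and RXRG was listed at 0 in every group. Jersey was higher for 2 of the 8 at D15, 6 at D90 and 7 at D250. Past 4-fold were 0, 1 and 2 of them upward and 0 downward, beside 8.57%, 11.7% and 12.3% of all genes in either direction. With scaling to the sum the higher genes numbered 4, 6 and 5, and 1 passed 4-fold at D250 under both other scalings. RXRA, the usual partner of the liver X receptors, was 33.7, 8.44 and 20.2 FPKM in Kashmiri. In Jersey it was 56.6, 64.3 and 117 FPKM. RXRA thus had its low point in Kashmiri at D90, where NR1H2 and NR1H3 had their Kashmiri high points. NRIP1, a coregulator of nuclear receptors, was 0.943 FPKM at D15 and 36.1 FPKM at D250 of the Jersey groups, and the coactivator NCOA2 was 2.71 FPKM in Jersey at D15 and 21.3 FPKM at D90. Over the days in Kashmiri none of the 8 passed 4-fold. In Jersey 1, 1 and 2 passed upward for D90 over D15, D250 over D90 and D250 over D15.

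Of 9 further LXR target genes, 8 had an entry. Their median breed log2 ratio was 0.42, 0.48 and 0.46, and 2, 0 and 2 of them passed 4-fold upward. Of all genes, 8.57%, 11.7% and 12.3% passed in either direction. At D15 the upward passes of the list were 1 with upper quartile scaling and 3 with scaling to the sum. At D250 they were 0 under both, and with scaling to the sum 1 gene passed downward and the median turned to -0.25. PLTP, which transfers phospholipid between lipoproteins, was 1.37 FPKM in Kashmiri and 38.4 FPKM in Jersey at D15, but 4.72 FPKM and 4.69 FPKM at D250. MERTK, a receptor for engulfing dead cells, was 1.10 FPKM and 8.07 FPKM at D15 in Kashmiri and Jersey. SMPDL3A, a phosphodiesterase induced by LXR in macrophages, was 7.88 FPKM and 46.9 FPKM at D250. APOE, the apolipoprotein that accepts exported cholesterol, was listed at 0 in Jersey at D15, while Jersey had 4414 FPKM at D90 and Kashmiri 463 FPKM at D15, so its entry there cannot be read as a level. The downward pass of this list between breeds at D15, and 2 upward passes over D15 in Jersey, rest on that 0. Over the days in Kashmiri none of the 8 passed 4-fold as deposited, with medians of 1.37, -0.52 and 0.44. Of all genes, 7.5%, 1.98% and 4.05% passed there. Under both other scalings 1 of the 8 passed upward for D90 over D15 and 2 for D250 over D15. The list's median of D250 over D90 turned to 0.14 with scaling to the sum. As deposited, in Jersey the medians were 0.72, -0.01 and 0.58, with 1, 0 and 2 genes past 4-fold upward and 0, 1 and 1 downward. The shares of all genes were 6.76%, 4.18% and 12.6%. Under both other scalings the list's counts were 1, 0 and 1 upward and 0, 2 and 1 downward.

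Enzymes that make oxysterols were listed as 6 genes, of which 4 reached 1 FPKM. CH25H, the cholesterol 25-hydroxylase, measured 0.724 FPKM in Kashmiri and 19.2 FPKM in Jersey at D90, and 1.44 FPKM in Jersey on both other days. CYP27A1, the sterol 27-hydroxylase, was 38.5 FPKM in Kashmiri and 277 FPKM in Jersey at D15, and 93.2 FPKM and 47.6 FPKM at D250. As deposited, these 2 were the genes of the list past 4-fold in any comparison. By comparison, 1.98% to 12.6% of all genes passed. The order of the breeds for CYP27A1 turned between D15 and D250.

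**Figure D4:**
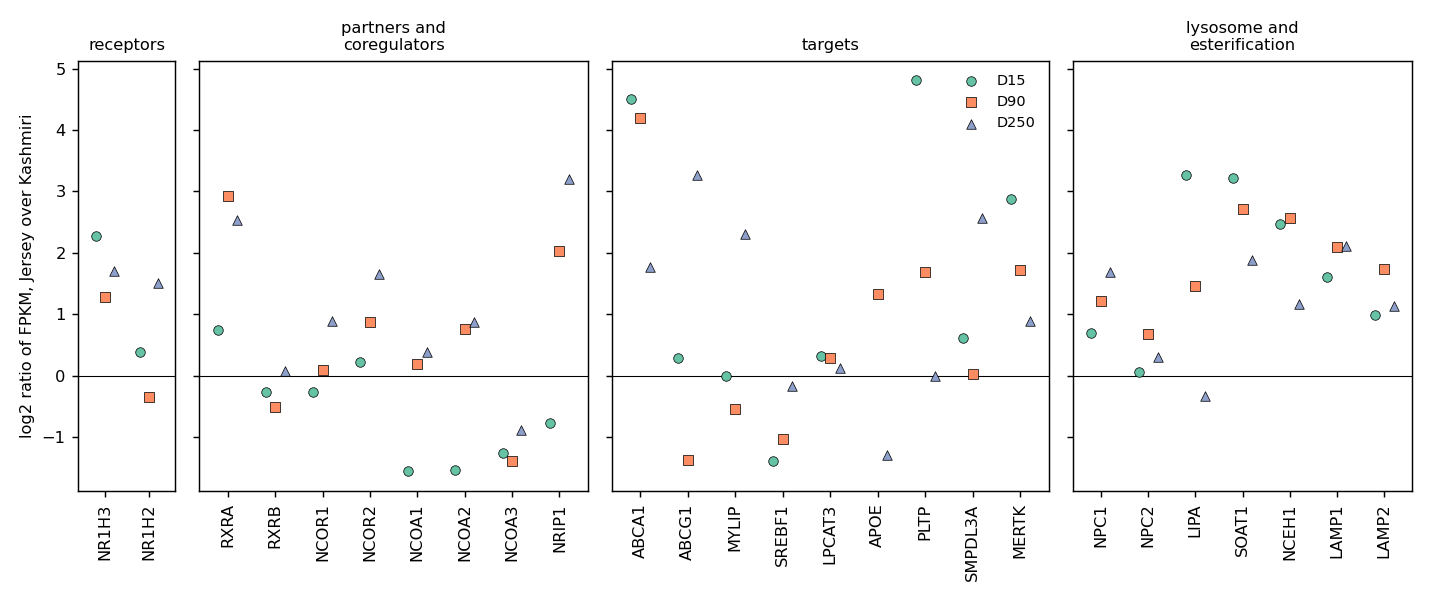
Log2 ratio of FPKM, Jersey over Kashmiri, at D15 (circles), D90 (squares) and D250 (triangles) for the liver X receptors, their partners and coregulators, 9 of their target genes, and genes of the lysosome and of cholesterol esterification, with 1 point per gene and day and no error bar because each is a ratio of 1 value to 1 value. ABCA1 lies above 0 on all 3 days at 4.51, 4.20 and 1.76, and ABCG1 moves from 0.28 at D15 to -1.37 at D90 and 3.26 at D250. APOE has no point at D15 because it was listed at 0 in Jersey. The last panel shows NPC1 and NPC2 with LIPA, SOAT1, NCEH1, LAMP1 and LAMP2, a hand-picked part of the 16 listed genes. Left out are, among others, STARD4, SCP2 and GRAMD1C, lower in Jersey on all 3 days, and SCARB1 and STARD3, higher on all 3 days.

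Beside NPC1 and NPC2, 16 genes handle sterol in the lysosome and inside the cell, and all 16 had an entry. Of those with at least 1 FPKM, Jersey exceeded Kashmiri for 8 of 15 at D15, 11 of 16 at D90 and 9 of 16 at D250. Past 4-fold were 4, 2 and 1 upward and 0 downward, beside 8.57%, 11.7% and 12.3% of all genes in either direction. At D90 the upward passes were 1 with upper quartile scaling and 3 with scaling to the sum. The median log2 ratio was 0.36, 0.84 and 0.48, and at D250 it was -0.14 with scaling to the sum. Under both other scalings 0 genes passed 4-fold at D250. LIPA, the lysosomal acid lipase that frees cholesterol from its esters, was 11.4, 110 and 144 FPKM in Kashmiri. It was 109, 301 and 114 FPKM in Jersey. SOAT1, which stores cholesterol as esters, was 3.78, 18.1 and 29.8 FPKM in Kashmiri and 35.3, 119 and 109 FPKM in Jersey. The lipoprotein receptor SCARB1 was 5.24 FPKM in Kashmiri and 28.4 FPKM in Jersey at D15, and the sterol carrier STARD5 was 0.757 FPKM and 7.45 FPKM. LIPA and SOAT1 were lowest in Kashmiri at D15, as ABCA1 and NR1H3 were. As deposited, the list passed 4-fold upward for 2 genes in Kashmiri D90 over D15 and for 2 in D250 over D15. None passed upward in Kashmiri D250 over D90 or in the 3 Jersey pairs of days. Of all genes, 7.5%, 4.05% and 1.98% passed in these Kashmiri comparisons, and 4.18% to 12.6% in the Jersey ones. For Kashmiri D250 over D15 the list's count was 3 with upper quartile scaling and 5 with scaling to the sum.

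Among the remaining ABC proteins, 36 of 39 listed genes had an entry and 20 reached 1 FPKM in a group. Of 12 other ABCA and ABCG transporters, 5 reached 1 FPKM, and all that did so in a breed comparison were higher in Jersey, with medians of 0.97, 1.28 and 2.38 as deposited. With upper quartile scaling 1 of the 4 at D15, and with scaling to the sum 1 of the 5 at D250, was lower instead. ABCA13, a very large and little studied transporter, went from 0.119 FPKM in Kashmiri to 8.04 FPKM in Jersey at D250. ABCA6 was 1.36 FPKM and 12.6 FPKM there, and ABCA10 was 0.856 FPKM and 8.64 FPKM. These 3 thus shared with ABCG1 and ABCA7 their highest value in Jersey at D250. ABCA3, which loads lipid into lamellar bodies in the lung, was 4.29 FPKM in Kashmiri and 33.2 FPKM in Jersey at D90. Of 12 other ABCB and ABCC transporters, 9 had an entry and 2 reached 1 FPKM, and 0 passed 4-fold. By comparison, 1.98% to 12.6% of all genes passed.

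The ABC transporters of organelle membranes held 9 genes at 1 FPKM or more, with breed medians of 0.10, 0.18 and -0.37 as deposited. The peptide transporter genes TAP1 and TAP2, which feed antigen presentation, were the 2 past 4-fold upward between breeds, at D250. They passed as deposited, beside 12.3% of all genes, though not with scaling to the sum. At D250 TAP1 was 39.7 FPKM in Kashmiri and 165 FPKM in Jersey. TAP2, read from a joined entry, was 22.6 FPKM and 132 FPKM. ABCD4, a cobalamin transporter of the lysosome, was 21.1 FPKM at D15 and 4.42 FPKM at D90 in Kashmiri. The 4 ABC proteins without membrane domains, which act in translation, passed 4-fold in 0 comparisons, beside 1.98% to 12.6% of all genes. Their breed medians were -0.02, -0.07 and 0.02 as deposited. With scaling to the sum these medians were 0.35, 0.26 and -0.70.

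Other blood cells were also read. Summed, the 10 T and NK cell markers had 328 to 1478 FPKM in Kashmiri and 74.9 to 221 FPKM in Jersey. The highest sum was that of Kashmiri at D90. As deposited, ABCG1, ABCA7, ABCC1 and both liver X receptors had their Kashmiri high points at D90, and ABCA1, ABCG2, NPC1 and NPC2 did not. The 7 B cell markers summed to between 8.06 FPKM in Jersey at D250 and 69.4 FPKM, also in Kashmiri at D90. The 3 red cell markers with an entry all stayed below 1 FPKM, and HBB was listed at 0 in 3 groups and ALAS2 in 3. The part of lymphocyte RNA in these levels was not tested.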

How the data were processed

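RNA-seq of milk cells captured with KRT18 antibody-coated beads was analysed from the deposited FPKM values, which the authors made with stranded mRNA libraries, Trimmomatic, Bowtie and TopHat against the bovine assembly UMD 3.1, and Cufflinks and Cuffdiff, pooling the samples of a group. The table gave 1 FPKM value for each of 6 groups. Columns named for local cattle were read as Kashmiri. Genes were looked up by name, also in joined names, and of several entries under 1 name that with the largest average over the 6 groups was taken (61264 entries, 25121 named). The genes and lists were chosen with earlier results of these data known. Depth per library is unknown, so no interval was computed, and there was no replicate and no test. Log2 ratios of single genes had no pseudocount. Medians and calls used a pseudocount of 1 FPKM, at least 1 FPKM in either group and a log2 limit of 2.

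The genes named were all 10 members, up to 4 genes per pathway list by largest log2 ratio among those past 4-fold, KRT18 and markers at 0, and the 3 nearest profiles of members at 1 FPKM or more in every group with a range over 4-fold. The profiles nearest to NR1H3 are not reported here. RXRG, CD68, CSF1R, CSF3R, ELF5 and KRT19 were added after values were seen, and NCEH1 and others only in a plot. Alternatives were a pseudocount of 0.1 FPKM, upper quartile scaling, scaling to the sum of all genes but 5 milk protein genes, summed entries, a log2 limit of 1, no filter and genes at 1 FPKM in both groups. The 2-fold count at D250 under both scalings was added after the data were seen. The code was tested on simulated data. The work ran in Python 3.11.15 with pandas 2.3.3, numpy 2.4.6 and, for plots, matplotlib 3.10.9.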

Additional observations from a re-analysis of the deposited data

Results flagged for a closer look

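ABCG1 and ABCA7 had plain ratios of opposite sign over late lactation in the 2 breeds, each past 2-fold as deposited. From D90 to D250 the log2 ratio of ABCG1 was -1.47 in Kashmiri and 3.16 in Jersey, and that of ABCA7 was -1.44 in Kashmiri and 2.40 in Jersey. From D15 to D250 the log2 ratio of ABCA7 was -1.04 in Kashmiri and 2.00 in Jersey. In Kashmiri the D250 over D90 ratios came to -0.80 for ABCG1 and -0.83 for ABCA7 with 1 FPKM added, and to -0.77 and -0.74 with scaling to the sum, so neither was then past 2-fold. The Kashmiri D250 over D15 ratio of ABCA7 was -0.57 with 1 FPKM added and -0.03 with scaling to the sum. With 1 value per group the difference between the breeds was not tested, and the Kashmiri D250 values of both genes were below 1 FPKM.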

How the results depend on the processing

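With 1 value per group, no replicate could be left out. No paired analysis was possible because each group had 1 value. With a log2 limit of 1, the genes passing numbered 3, 4 and 2 in Kashmiri for D90 over D15, D250 over D90 and D250 over D15, 2 for Jersey D90 over D15, 3 for Jersey D250 over D15, and 4 and 7 between the breeds at D90 and D250. With upper quartile scaling, 0 passed 4-fold for Kashmiri D90 over D15 (without ABCG2), 1 for Jersey D250 over D90 and 1 between breeds at D250 (both without ABCG1). With scaling to the sum, 0 passed for Kashmiri D90 over D15, 1 (ABCC1) for Kashmiri D250 over D15 and 1 for Jersey D250 over D90. A pseudocount of 0.1 FPKM gave 1 for Kashmiri D250 over D15. The count past 2-fold between breeds at D250, 7 as deposited, was 5 and 3 under these scalings, a choice made after the data were seen. The members' median with scaling to the sum was 0.18 for Kashmiri D250 over D90, 0.79 for Kashmiri D250 over D15, 0.22 between breeds at D90 and 0.81 at D250. Over genes at 1 FPKM in both groups it was -0.062 for Kashmiri D250 over D15. Of 81 single ratios, 7 changed sign with upper quartile scaling and 11 with scaling to the sum, none of them past 4-fold, and 0 with either pseudocount or summed entries. With scaling to the sum, 33 of the 81 changed sign or moved by over 1.5-fold, among them every ratio with Kashmiri at D250. The scaling multiplies all genes of a group by the same factor, so it shifts a given comparison equally for all genes. Kashmiri at D250 had the lowest sum over all entries, 533249 FPKM, against 645410 to 1023152 FPKM in the other groups. Why that sum was low was not tested.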
